A study of Trametes versicolor with 3 samples.

Results

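DNA replication and core histone genes of the white-rot fungus Trametes versicolor were taken as the gene models whose first KEGG entry names DNA replication, a minichromosome maintenance (MCM) protein, a DNA polymerase, a replication factor, the origin recognition complex (ORC), the proliferating cell nuclear antigen (PCNA), ribonucleoside-diphosphate reductase or a histone. The rule used annotation and no measured values, and gave 113 of 11480 gene models. It was set with earlier results of these data known. They fall into 8 roles, with 14 genes of origin licensing, 2 other replication factors, 53 genes named as subunits of DNA polymerases alpha, delta and epsilon, 16 named as other DNA polymerases, 7 of the sliding clamp and its loader, 4 of replication factor A, 3 of ribonucleotide reductase and 14 core histones.

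Mycelium of 1 strain from the China Center of Industrial Culture Collection was grown for 9 days on potato dextrose agar (PDA), on a medium with glucose as its carbon source, or on poplar medium. One library of poly(A)-enriched RNA was sequenced per medium, from mycelial mats that had reached 4 cm. The labels contradict themselves, since their growth field names PDA at 25 °C for every culture while the source names give the 3 media. The groups follow the source names. With 1 library per medium, no difference has a replicate check, no test between media was possible, and the 95% intervals below cover counting error only.

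A eukaryotic cell licenses its origins by loading the ring of MCM2 to MCM7 onto DNA bound by ORC, and then copies the DNA with polymerases alpha, delta and epsilon. PCNA is the ring that holds a polymerase on DNA, replication factor C (RFC) loads it, replication factor A (RPA) coats single-stranded DNA, and ribonucleotide reductase makes the deoxynucleotides. New DNA is wrapped on octamers of histones H2A, H2B, H3 and H4, and in yeast many of these transcripts are most abundant around S phase, so that their levels in a mycelium depend in part on how many nuclei are replicating. In bulk RNA, fewer cells that express a gene and less of its RNA per cell cannot be told apart.

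The label of the group fits only part of it. The name "DNA polymerase alpha subunit A" was given to 42 gene models, and 39 of these are described in the same files as HET-domain-containing proteins. In ascomycetes such as Podospora and Neurospora, HET-domain proteins act in heterokaryon incompatibility, the cell death that follows fusion of genetically unlike hyphae, and they are not polymerase subunits. None of the 39 carries a Gene Ontology term, whereas 45 of the other 74 members do, all 14 histones among them. Their coding lengths run from 432 to 2394 bases, with a median of 1299. The other 3 genes of that name are described as hypothetical proteins, and Trave1_58917, at 4374 bases, is the longest of the 42 and the only one of the 3 with terms for nucleotidyltransferase activity and nucleic acid binding. A second conflict is Trave1_65430, named MCM4 but described as an SPX-domain-containing protein, a family known in yeast for phosphate sensing and transport. In all, 30 of the 113 descriptions name the replication or histone function themselves, 28 are hypothetical proteins and 4 are predicted proteins. The HET-domain genes are therefore described apart from the rest below.

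The libraries held about 2850000 assigned reads on PDA, 2680000 on glucose and 2800000 on poplar, so that 1 read on a 1 kb gene was worth 0.351, 0.373 and 0.357 RPKM, the unit that scales reads to coding length and library total. At least 1 read was counted for 110, 106 and 109 members in the same order, and at least 10 reads for 77, 76 and 83. The members took 0.311% of all reads on PDA, 0.291% on glucose and 0.321% on poplar. No gene model was annotated as a plant transcript, so that RNA from the poplar itself was not measured here.

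Few members differed strongly between media. A member counted as measured in a pair of libraries when it reached an RPKM of 1 in either, and 103 members reached that in at least 1 library. The 10 that did not were 9 HET-domain genes and the MCM10-named gene Trave1_129503. Differences are given as log2 ratios of RPKM plus 1, with a call at 2-fold, and as plain RPKM ratios with an exact 95% interval of the reads. Between poplar and glucose, 5 of 101 measured members (4.95%) were at least 2-fold higher in poplar, where 8.1% of all measured gene models were, and 6 (5.94%) were at least 2-fold lower, where 8.31% were. Between poplar and PDA, 7 of 101 (6.93%) were higher in poplar against 10.8% of all gene models, and 5 (4.95%) were lower against 5.11%. Between glucose and PDA, 4 of 102 (3.92%) were higher in glucose against 12.7%, and 6 (5.88%) were lower against 6.52%. The shares of members called were thus below those of all gene models in each direction of each pair. These shares, and those by the second criterion below, are not matched for level. The members had a median of 29, 29 and 30 reads on PDA, glucose and poplar, beside 50, 49 and 53 for all gene models. Fewer reads widen the intervals, and a low RPKM shrinks a ratio of RPKM plus 1.

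By the second criterion, an interval of the read ratio that excludes 1, the members again gave no larger share than all gene models. In poplar against glucose 13 members (12.9%) were higher and 6 (5.94%) lower, beside 20.2% and 15.2% of all gene models. In poplar against PDA the counts were 15 (14.9%) and 14 (13.9%), beside 22% and 14.7%. In glucose against PDA they were 9 (8.82%) and 16 (15.7%), beside 20.8% and 19.5%. The median log2 ratio of the members was 0.11 for poplar against glucose, 0.00 for poplar against PDA and -0.05 for glucose against PDA, and the medians of all gene models were 0.08, 0.09 and 0.01. These 3 comparisons share their libraries and are not independent of each other.

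Left without the HET-domain genes, the 74 other members had 3 higher (4.17%) and 1 lower (1.39%) of 72 measured in poplar against glucose, beside 8.1% and 8.31% of all gene models. They had 4 higher (5.48%) and 1 lower (1.37%) of 73 in poplar against PDA, beside 10.8% and 5.11%. In glucose against PDA they had 2 higher (2.74%) and 5 lower (6.85%) of 73, beside 12.7% and 6.52%. Their median log2 ratios were 0.14, -0.01 and -0.17 in that order. The median reads of these 74 were 56, 45 and 53.5 on PDA, glucose and poplar, nearer to those of all gene models. Of these members, 33 of 73 (45.2%) had their lowest RPKM on glucose, 22 on PDA and 18 on poplar, and of all gene models with an RPKM of at least 1 in any library 37.3% were lowest on glucose.

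**Figure D1:**
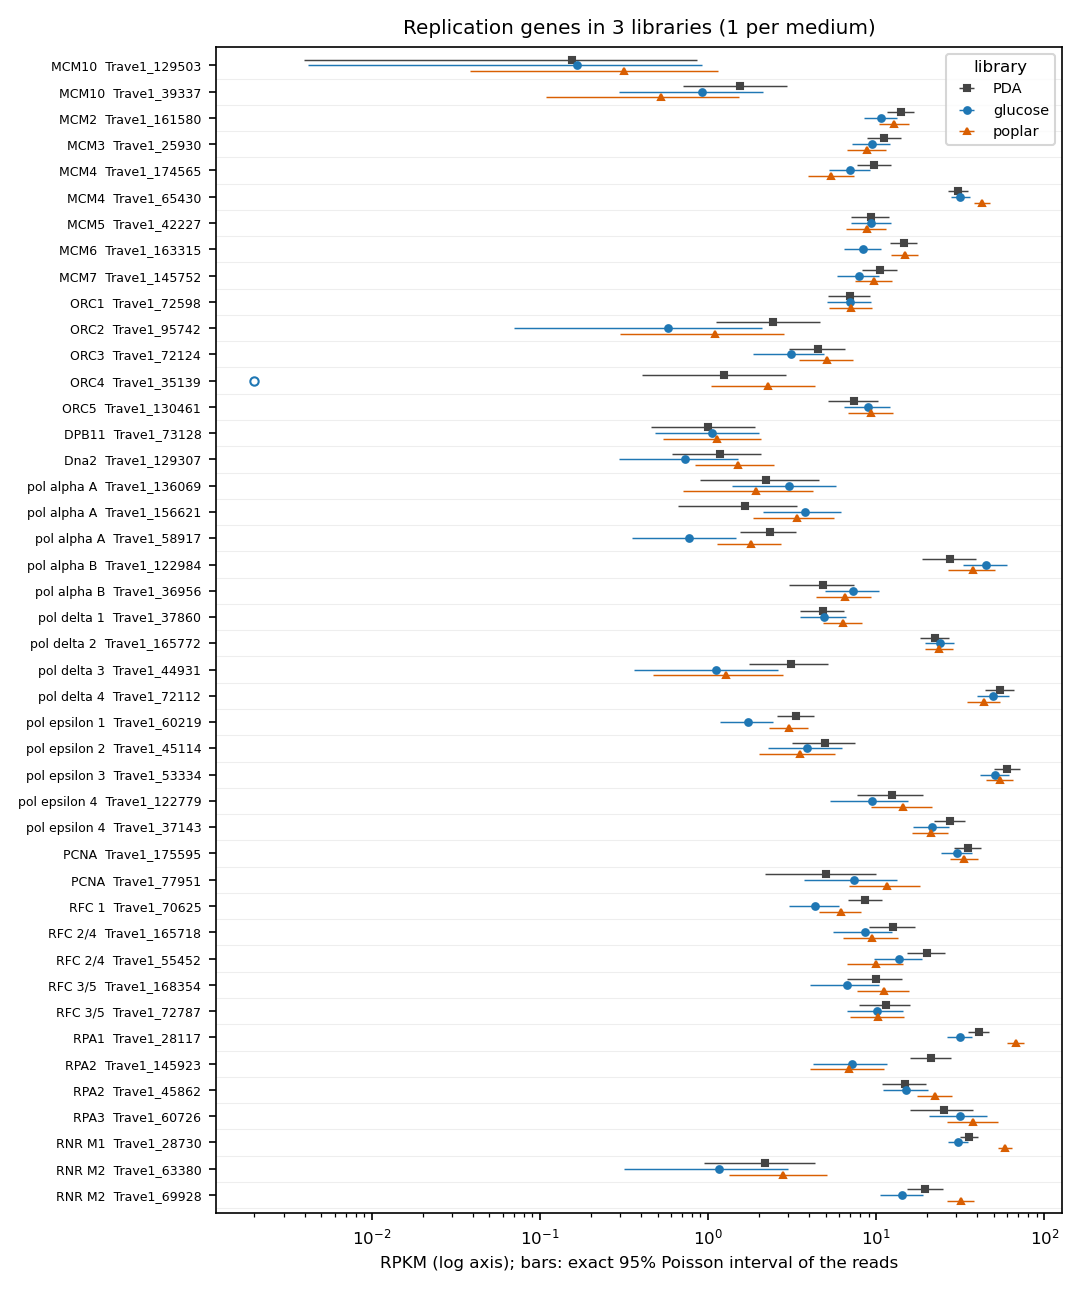
RPKM (log axis) of the 44 replication genes without a HET-domain description, other polymerases and histones left out, in the PDA (squares), glucose (circles) and poplar (triangles) libraries, with exact 95% Poisson intervals of the reads as bars. Replication factor A1 and both well-covered ribonucleotide reductase genes have poplar points clear of the other libraries, the replication factor A2 gene Trave1_145923 has its PDA point clear of the others, and the open circle at the left edge is the ORC4-named gene with 0 reads on glucose.

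Among the licensing genes, the MCM2 to MCM7 helicase subunits stood at similar levels per length and were lowest on glucose as a sum. The 6 genes with an MCM-domain or helicase description ranged from 9.27 to 14.6 RPKM on PDA, from 7.01 to 10.7 on glucose and from 5.42 to 14.8 on poplar. Together they had 516, 363 and 441 reads on PDA, glucose and poplar. The pooled ratio was 0.749 for glucose to PDA (0.653 to 0.858), 0.870 for poplar to PDA (0.765 to 0.990) and 1.16 for poplar to glucose (1.01 to 1.34). None of the 6 passed 2-fold in any pair.

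MCM6 (Trave1_163315) was measured at 14.6 RPKM on PDA, 8.35 on glucose and 14.8 on poplar. Glucose was thus the low library, with a poplar to glucose ratio of 1.77 (1.30 to 2.42) and a glucose to PDA ratio of 0.571 (0.417 to 0.776). MCM4 (Trave1_174565) ran in another order, at 9.75 RPKM on PDA, 7.01 on glucose and 5.42 on poplar, with a poplar to PDA ratio of 0.555 (0.372 to 0.819). MCM2 (Trave1_161580) stood at 14.01, 10.7 and 12.8 RPKM on PDA, glucose and poplar, MCM3 (Trave1_25930) at 11.1, 9.37 and 8.81, MCM5 (Trave1_42227) at 9.27, 9.37 and 8.80, and MCM7 (Trave1_145752) at 10.6, 7.92 and 9.69. For these 4 every interval of a ratio between libraries included 1. MCM4 and MCM6, subunits of one ring, therefore had different orders of libraries, and the spread among the 6 subunits was 1.58-fold from lowest to highest on PDA, 1.53-fold on glucose and 2.72-fold on poplar. The SPX-domain gene named MCM4 was higher than any of them, at 30.7, 31.7 and 42.7 RPKM, with a poplar to glucose ratio of 1.35 (1.13 to 1.61).

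MCM10, which in yeast helps to switch the loaded helicase on, was named for Trave1_39337 at 1.54 RPKM on PDA, 0.914 on glucose and 0.525 on poplar, from 9, 5 and 3 reads, and for Trave1_129503 with 1, 1 and 2 reads. Neither level can be ordered at this depth. The 5 ORC subunits had 127, 107 and 138 reads in all on PDA, glucose and poplar, and each pooled ratio had an interval that included 1. ORC1 (Trave1_72598) was nearly level, at 6.98, 6.97 and 7.11 RPKM. ORC3 (Trave1_72124) stood at 4.53, 3.10 and 5.11 RPKM, and ORC5 (Trave1_130461) at 7.36, 8.92 and 9.37. ORC2 (Trave1_95742) had 9 reads on PDA, 2 on glucose and 4 on poplar. It passed 2-fold as lower on glucose than on PDA, with a log2 ratio of -1.13 and an interval of the ratio that included 1 (0.0249 to 1.14).

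ORC4 (Trave1_35139) had 5 reads on PDA, none on glucose and 9 on poplar. Its poplar level was at least 1.89-fold higher than on glucose by the exact interval, and 2.87-fold higher when glucose is set to a floor of 3 reads. Of the 5 ORC genes, 4 had their lowest RPKM on glucose, beside 37.3% of all gene models. These 4 include ORC1, which was nearly level, and ORC2 and ORC4, which had 2 and 0 reads on glucose. Among genes with at least 30 reads over the 3 libraries it was 2 of 3, ORC1 among them, beside 39.9% of all gene models. The ORC genes thus give no clear order of libraries. Dna2 (Trave1_129307), a helicase and nuclease that trims lagging-strand fragments, had 12, 7 and 15 reads, and DPB11 (Trave1_73128), which in yeast joins the firing factors, had 9, 9 and 10. All the ratios between libraries for Dna2 and DPB11 had intervals that included 1.

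Among the polymerase genes without a HET-domain description, 2 catalytic subunits were lower on glucose than in both other media. Trave1_58917, the longest gene named for polymerase alpha, the enzyme that starts each strand together with primase, was measured at 2.33 RPKM on PDA, 0.768 on glucose and 1.80 on poplar, from 29, 9 and 22 reads. The catalytic subunit of polymerase epsilon (Trave1_60219), the leading-strand enzyme, stood at 3.34, 1.72 and 3.03 RPKM, from 64, 31 and 57 reads. The catalytic subunit of polymerase delta (Trave1_37860), the lagging-strand enzyme, stood at 4.82, 4.90 and 6.36 RPKM. Glucose was the low library for alpha and epsilon. The glucose to PDA ratio was 0.330 for alpha (0.138 to 0.717) and 0.516 for epsilon (0.325 to 0.804), and the poplar to glucose ratio was 2.34 (1.03 to 5.77) and 1.76 (1.12 to 2.82). For delta all intervals included 1. On the scale of RPKM plus 1 none of the 3 passed 2-fold, since alpha's log2 ratio of glucose to PDA was -0.91.

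The accessory polymerase subunits were mostly more abundant per length than the catalytic ones. The highest were subunit 3 of epsilon (Trave1_53334) at 60.3, 51.0 and 54.4 RPKM on PDA, glucose and poplar, and subunit 4 of delta (Trave1_72112) at 54.2, 49.8 and 43.8. Subunit 2 of delta (Trave1_165772) stood at 22.4, 23.9 and 23.7 RPKM. All 3 were close to level, with intervals that included 1 in each pair. The small gene Trave1_122984, of 381 bases and named alpha subunit B, stood at 27.6, 45.1 and 37.5 RPKM. Its glucose to PDA ratio was 1.63 (1.01 to 2.68), an interval close to 1 that depends on the scaling. The alpha subunit B gene with a matching description, Trave1_36956, stood at 4.84, 7.27 and 6.5 RPKM. Of the 14 genes, none passed 2-fold in any pair, and their pooled reads gave a ratio of 0.899 for glucose to PDA (0.804 to 1.01) and of 1.06 for poplar to glucose (0.945 to 1.19).

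PCNA differed between media by less than the counting error. Its main gene, Trave1_175595, stood at 35.2 RPKM on PDA, 30.2 on glucose and 33.4 on poplar, from 118, 95 and 110 reads, and the 3 ratios ran from 0.857 to 1.11 with intervals that included 1. The shorter PCNA gene, Trave1_77951, stood at 5.06, 7.40 and 11.6 RPKM from 8, 11 and 18 reads. It passed 2-fold between poplar and PDA, with a ratio of 2.29 whose interval included 1 (0.948 to 6.09).

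The RFC loader, in contrast, was lower on glucose and poplar than on PDA as a sum. Its 5 genes had 239 reads on PDA, 147 on glucose and 175 on poplar, with a pooled ratio of 0.655 for glucose to PDA (0.529 to 0.807) and of 0.746 for poplar to PDA (0.610 to 0.910). The large subunit (Trave1_70625) stood at 8.59, 4.33 and 6.15 RPKM, with a glucose to PDA ratio of 0.503 (0.327 to 0.762). One subunit 2/4 gene (Trave1_55452) stood at 19.9, 13.7 and 9.98 RPKM and was low on poplar, with a poplar to PDA ratio of 0.50 (0.309 to 0.793). The subunit 3/5 gene Trave1_168354 stood at 9.91, 6.68 and 11.1 RPKM, and all its intervals included 1. The glucose to PDA ratio of RFC was below that of the clamp it loads, 0.857 for PCNA (0.647 to 1.13), but the intervals overlap.

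Subunits of RPA differed in which library was high. RPA1 (Trave1_28117), the large subunit that binds single-stranded DNA, was measured at 40.8 RPKM on PDA, 31.4 on glucose and 67.4 on poplar, from 196, 142 and 318 reads. Poplar was the high library, with a log2 ratio to glucose of 1.08, past 2-fold, and RPKM ratios of 2.14 to glucose (1.75 to 2.63) and 1.65 to PDA (1.38 to 1.98). Trave1_145923, the gene described as the middle subunit RPA32, was measured at 21.1 RPKM on PDA, 7.22 on glucose and 6.91 on poplar, from 53, 17 and 17 reads. PDA was its high library, with log2 ratios of -1.43 for glucose to PDA and -1.49 for poplar to PDA, both past 2-fold, and RPKM ratios of 0.341 (0.185 to 0.599) and 0.327 (0.177 to 0.573).

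A second gene named for the same subunit, Trave1_45862, is described as a hypothetical protein and stood at 14.9, 15.1 and 22.4 RPKM, with a poplar to PDA ratio of 1.51 (1.02 to 2.24). The small subunit RPA3 (Trave1_60726) stood at 25.1, 31.4 and 37.8 RPKM, and its intervals included 1. In the cell these 3 kinds of subunit form one trimer. RPA1 was above every other RPA gene in each library per length, except that it and RPA3 were level on glucose.

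Ribonucleotide reductase was the role with the largest pooled difference. The large subunit M1 (Trave1_28730), which holds the active site, was measured at 35.6 RPKM on PDA, 30.7 on glucose and 58.3 on poplar, from 271, 219 and 435 reads. The small subunit M2 (Trave1_69928), which supplies the radical for the reaction, was measured at 19.6, 14.2 and 31.9 RPKM, from 69, 47 and 110 reads. Both were highest on poplar, and for both the poplar interval lay above those of the other libraries. The poplar to glucose ratio was 1.90 for M1 (1.61 to 2.25) and 2.24 for M2 (1.58 to 3.22), and the poplar to PDA ratio was 1.63 (1.4 to 1.91) and 1.62 (1.19 to 2.23). On the scale of RPKM plus 1 only M2 against glucose passed 2-fold, with a log2 ratio of 1.11, while M1 reached 0.90.

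A second M2-named gene, Trave1_63380, had 8, 4 and 10 reads and stood in the same order. Pooled over the 3 genes, the reads gave a ratio of 1.97 for poplar to glucose (1.70 to 2.28), of 1.62 for poplar to PDA (1.42 to 1.86) and of 0.826 for glucose to PDA (0.702 to 0.971). Beside these, the poplar to PDA ratio was 0.870 for the pooled MCM genes, 0.949 for the main PCNA gene and 0.746 for the pooled RFC genes. Their poplar to glucose ratios were 1.16 (1.01 to 1.34), 1.11 (0.834 to 1.47) and 1.14 (0.909 to 1.43).

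**Figure D2:**
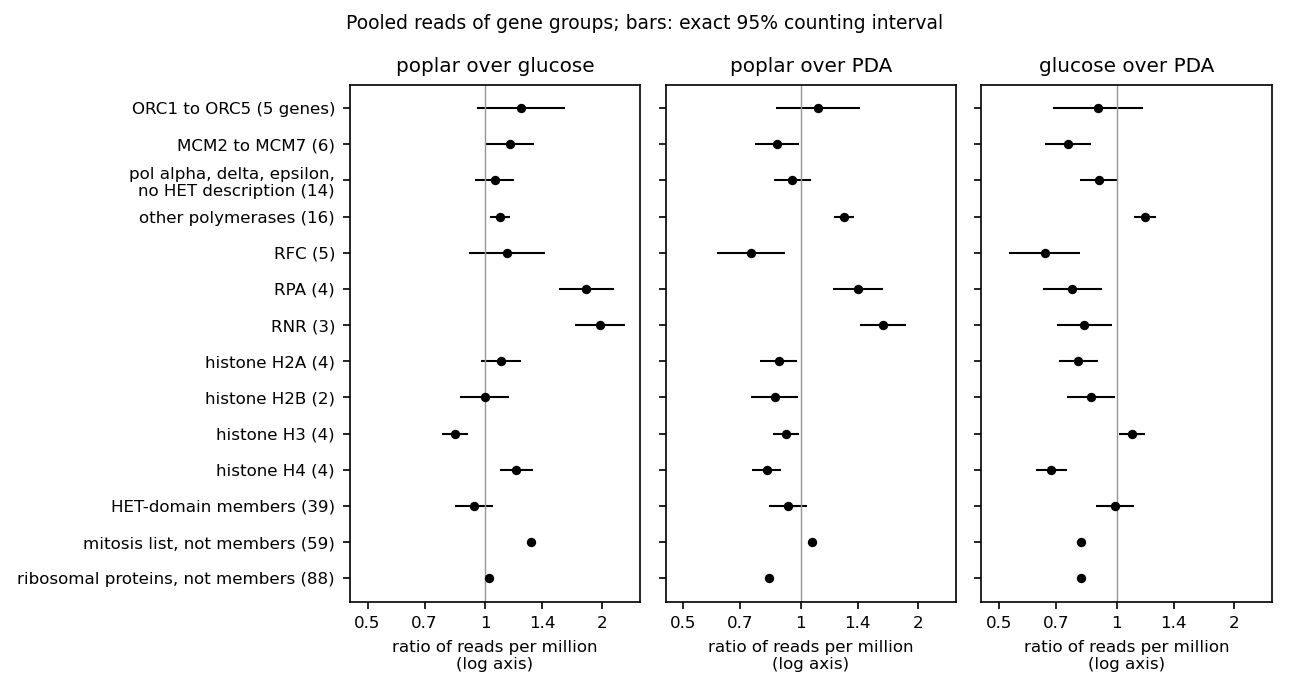
Ratio of reads scaled to library total (log axis) between libraries for the pooled genes of each group, with exact 95% counting intervals as bars, and with 2 lists of other genes for scale. Ribonucleotide reductase (1.97) and replication factor A (1.82) lie farthest from 1 in poplar over glucose, and replication factor C (0.655) and histone H4 (0.680) lie farthest from 1 in glucose over PDA.

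Of the 16 other polymerases, 11 (68.8%) were highest on poplar and 9 (56.2%) lowest on PDA, beside 37.6% and 40.0% of all gene models. Their pooled reads gave a poplar to PDA ratio of 1.29 (1.21 to 1.37), but Trave1_57809 alone held 1382 of the 2323 reads on poplar. That gene is named DNA polymerase sigma and stood at 96.7 RPKM on PDA, 121 on glucose and 142 on poplar, with a poplar to PDA ratio of 1.47 (1.35 to 1.60). It was the most abundant member per length outside the histones. Background for reading it is that the yeast proteins once called polymerase sigma add poly(A) tails to nuclear RNA and do not copy DNA, and another sigma-named member, Trave1_127457, carries a poly(A) RNA polymerase as its second KEGG name. Trave1_127457 stood at 23.3, 27.6 and 30.6 RPKM.

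The genes named polymerase eta, kappa and zeta copy past damaged bases in other eukaryotes. Of the 5, 3 were highest on poplar, beside 37.6% of all gene models, and 1 of these 3, zeta, was nearly level. The other 2, both named eta, were lowest on poplar. An eta-named gene with a polymerase description, Trave1_59589, stood at 1.5 RPKM on PDA, 3.38 on glucose and 5.27 on poplar, from 9, 19 and 31 reads. Its log2 ratio of poplar to PDA was 1.33, past 2-fold, and its RPKM ratio was 3.51 (1.63 to 8.38). Kappa (Trave1_34911) stood at 3.48, 3.70 and 6.71 RPKM, with a poplar to PDA ratio of 1.93 (1.08 to 3.56). Zeta (Trave1_42350) was level at 2.31, 2.16 and 2.57 RPKM. The polymerase IV gene Trave1_51981, described as a nucleotidyltransferase, had 5, 16 and 17 reads and stood past 2-fold above PDA in both other media, with ratios of 3.41 on glucose (1.19 to 11.9) and 3.46 on poplar (1.23 to 12.0).

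Among the others, the eta-named gene Trave1_69360, a hypothetical protein of 999 bases, stood at 67.1, 61.7 and 47.9 RPKM and was lowest on poplar, with a poplar to PDA ratio of 0.714 (0.568 to 0.896). Trave1_53211, also eta-named, was called lower on poplar than on glucose from 1 and 5 reads only. The mitochondrial polymerase gamma (Trave1_172646) was the flattest, at 5.67, 5.55 and 5.68 RPKM.

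**Figure D3:**
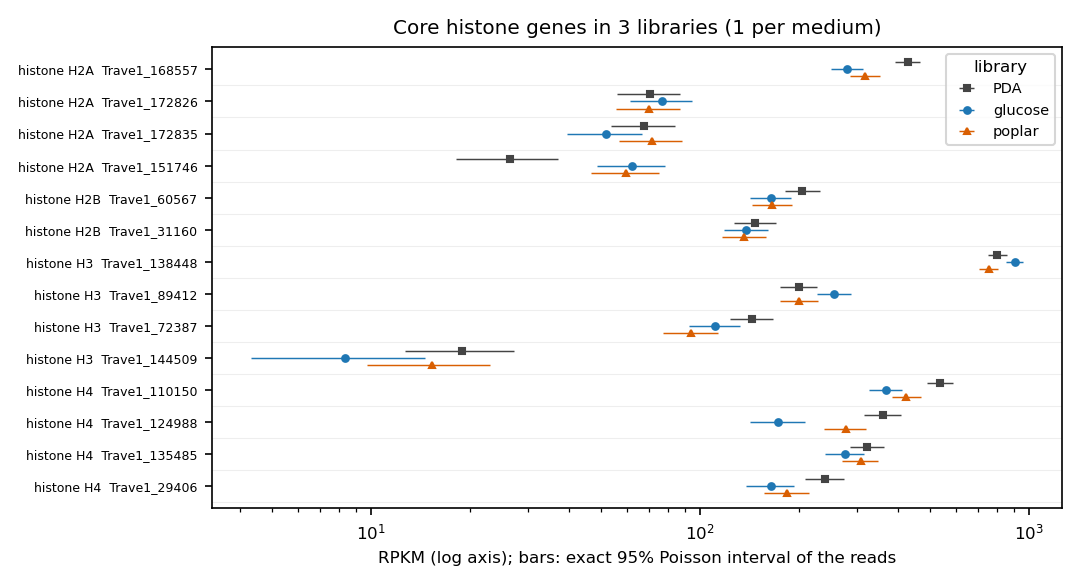
RPKM (log axis) of the 14 core histone genes in the PDA (squares), glucose (circles) and poplar (triangles) libraries, with exact 95% Poisson intervals of the reads as bars. The 4 histone H4 genes have their lowest point on glucose and their highest on PDA, while the most abundant H3 gene is highest on glucose and the H2A gene Trave1_151746 is lowest on PDA.

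Core histones made up 0.132% of all reads on PDA (0.128 to 0.136%), 0.116% on glucose (0.112 to 0.120%) and 0.115% on poplar (0.111 to 0.119%). All 14 had at least 10 reads in every library. The summed RPKM was 3571 on PDA, 3035 on glucose and 3083 on poplar, so that PDA was the high library, with pooled read ratios of 0.877 for glucose to PDA (0.836 to 0.920) and 0.870 for poplar to PDA (0.830 to 0.912). Per length, the summed RPKM of the histones was 51.5 times that of MCM2 to MCM7 on PDA, 57.6 times on glucose and 51.1 times on poplar. Near-identical copies of a histone gene share reads, and only uniquely assigned reads were counted, so the split among copies of a type is uncertain and the type sums may be too low.

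The 4 histones did not move alike between media. Histone H4 summed to 1461 RPKM on PDA, 981 on glucose and 1194 on poplar. All 4 of its genes were highest on PDA and lowest on glucose, and the pooled ratio was 0.680 for glucose to PDA (0.621 to 0.746), 0.818 for poplar to PDA (0.751 to 0.892) and 1.20 for poplar to glucose (1.09 to 1.32). Histone H3 summed to 1166, 1280 and 1067 RPKM, with a pooled ratio of 1.09 for glucose to PDA (1.02 to 1.18) and of 0.836 for poplar to glucose (0.774 to 0.902). Glucose was thus the low library for H4 and, by the deposited RPKM, the high library for H3. The H3 difference from PDA depends on the scaling. Upper-quartile scaling multiplies RPKM by 0.981 on glucose and 1.04 on PDA, and the H3 interval for glucose to PDA then includes 1.

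Although H3 and H4 enter the octamer in equal numbers, the ratio of their summed RPKM was 0.798 on PDA, 1.31 on glucose and 0.893 on poplar. The intervals of the pooled glucose to PDA ratios of H3 and H4 did not overlap. H2A to H2B, the other pair, differed less, at 1.68, 1.56 and 1.72. H2A pooled to a glucose to PDA ratio of 0.798 (0.712 to 0.894), and H2B to 0.860 (0.747 to 0.989).

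Single histone genes showed where these sums came from. Trave1_138448 was the most abundant of all 113 members and made up 68.9% of H3 on PDA, 70.7% on glucose and 71.0% on poplar. It stood at 803, 905 and 757 RPKM, with a poplar to glucose ratio of 0.836 (0.763 to 0.916). Trave1_89412, another H3, stood at 199, 255 and 200.5 RPKM, again highest on glucose, and Trave1_72387 stood at 144, 111 and 94.2, highest on PDA. The fourth H3 gene, Trave1_144509, carries CENP-A, the centromeric form of H3, as a further KEGG name. It was the least abundant histone, at 18.9 RPKM on PDA, 8.34 on glucose and 15.3 on poplar from 29, 12 and 23 reads, and it passed 2-fold as lower on glucose than on PDA with a ratio of 0.440 (0.205 to 0.890).

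Among the H4 genes, Trave1_124988 had the largest difference, at 360 RPKM on PDA, 173 on glucose and 277 on poplar. Its glucose to PDA ratio of 0.482 (0.381 to 0.606) passed 2-fold, and its poplar to glucose ratio was 1.60 (1.26 to 2.05). Trave1_110150 stood at 537, 367 and 425 RPKM, Trave1_135485 at 323, 276 and 308, and Trave1_29406 at 241, 164 and 184. For Trave1_135485 all intervals between libraries included 1. Several of these gene models are described as partial, and Trave1_124988 is only 237 bases long.

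Of the H2A genes, Trave1_168557 was the major one, at 428 RPKM on PDA, 281 on glucose and 318 on poplar. Trave1_151746 ran the other way, at 26.4, 62.2 and 59.5 RPKM from 33, 73 and 73 reads. PDA was its low library, and it passed 2-fold against both others, with ratios of 2.35 for glucose to PDA (1.54 to 3.67) and 2.25 for poplar to PDA (1.47 to 3.51). The remaining H2A genes, Trave1_172826 at 70.3, 76.7 and 69.9 RPKM and Trave1_172835 at 67.5, 51.7 and 71.3, had intervals that included 1. The 2 H2B genes stood at 205, 164 and 166 RPKM (Trave1_60567) and at 147, 139 and 137 (Trave1_31160).

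A pair of genes named histone H1/5, the linker histone, fall outside the members because the name does not end in a single histone type. Trave1_28557 stood at 99.4, 81.2 and 93.6 RPKM and Trave1_28201 at 55.0, 51.3 and 69.9. Both were lowest on glucose, as were 37.3% of all gene models, but the differences were small. For Trave1_28557 all intervals between libraries included 1. For Trave1_28201 only the poplar to glucose ratio, 1.36 (1.06 to 1.76), had an interval that excluded 1.

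The 39 HET-domain genes were low and uneven, as the plot of their levels by library shows. Their median was 2.42 RPKM on PDA, 1.66 on glucose and 2.15 on poplar, and 17, 15 and 17 of them had at least 10 reads. In poplar against glucose 2 of 29 measured (6.90%) were past 2-fold higher and 5 (17.2%) lower, beside 8.1% and 8.31% of all gene models. In poplar against PDA 3 of 28 (10.7%) were higher and 4 (14.3%) lower, beside 10.8% and 5.11%. In glucose against PDA 2 of 29 (6.90%) were higher and 1 (3.45%) lower, beside 12.7% and 6.52%. By the interval no share was above that of all gene models. In poplar against glucose 2 (6.90%) were higher and 3 (10.3%) lower, beside 20.2% and 15.2%. Poplar against PDA had 4 higher and 4 lower (14.3% each), beside 22% and 14.7%. Glucose against PDA had 3 higher and 3 lower (10.3% each), beside 20.8% and 19.5%. As a group their pooled reads gave ratios whose intervals included 1, at 0.936 for poplar to glucose (0.836 to 1.05), 0.927 for poplar to PDA (0.829 to 1.04) and 0.990 for glucose to PDA (0.886 to 1.11). That depends on the scaling, since by median of ratios the poplar ratios were 0.881 to glucose (0.786 to 0.987) and 0.865 to PDA (0.773 to 0.967), and by upper quartile the ratio to PDA was 0.865 (0.774 to 0.967).

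In each direction of each comparison, the member with the largest log2 ratio was a HET-domain gene, often from few reads. Trave1_87347 had 6 reads on PDA, 4 on glucose and 30 on poplar, at 1.94, 1.38 and 9.89 RPKM. Poplar was its high library, with ratios of 7.17 to glucose (2.53 to 28.0) and 5.09 to PDA (2.09 to 15.0), and its log2 ratio to glucose was 2.19. Trave1_47136 was best covered, with 140, 63 and 44 reads, and stood at 20.5, 9.83 and 6.56 RPKM. PDA was its high library, with a poplar to PDA ratio of 0.320 (0.223 to 0.452). Trave1_86801, at 9.45, 11.4 and 3.65 RPKM, was low on poplar, with a poplar to glucose ratio of 0.319 (0.145 to 0.647). Trave1_47139 had 15, 2 and 10 reads and was low on glucose, with a glucose to PDA ratio of 0.142 (0.0157 to 0.610), and Trave1_86134 had 18, 10 and 4 reads. Trave1_132726 had 0, 4 and 7 reads, which put poplar at least 1.47-fold above PDA by the exact interval, and 2.38-fold when PDA is set to a floor of 3 reads.

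**Figure D4:**
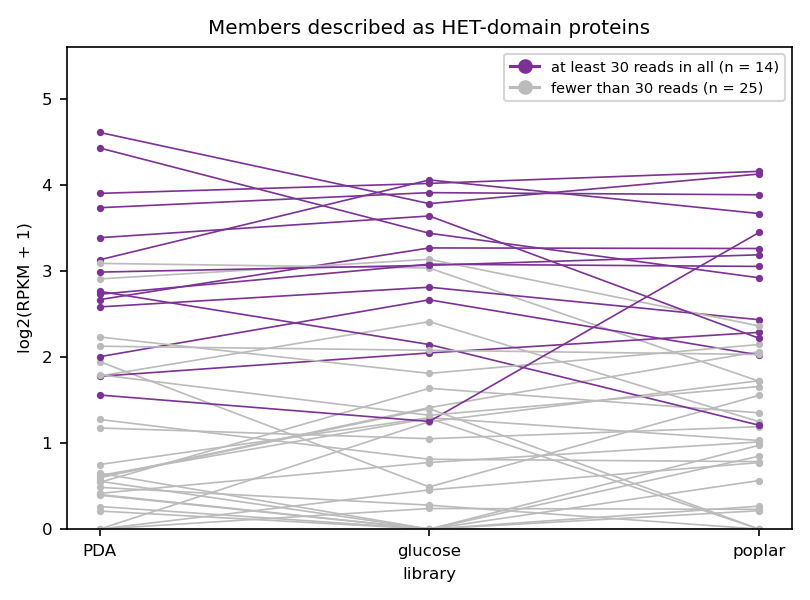
log2(RPKM + 1) of the 39 HET-domain members in the 3 libraries, 1 line per gene, with the 14 genes of at least 30 reads in all in purple and the other 25 in grey. Lines cross in both directions, 1 purple line climbs to poplar from 1.38 RPKM on glucose to 9.89, and most grey lines lie under the purple ones.

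Other genes of the same processes were read for how often each library was lowest. These lists were chosen with earlier results of these data known. Of all gene models 37.3% were lowest on glucose. Of 58 measured genes of mitosis and cytokinesis, 41 (70.7%) were lowest on glucose. In poplar against glucose 30 of the 58 (51.7%) were higher by the interval and 1 (1.72%) lower, beside 20.2% and 15.2% of all gene models. Past 2-fold were 5 and 0, and the median log2 ratio was 0.40 beside 0.08 for all gene models. The interval shares are not matched for level. The list had a median of 76 reads on glucose and 103 on poplar, beside 49 and 53 for all gene models. The kinesin 18/19 gene Trave1_163812 stood at 5.64 RPKM on PDA, 3.76 on glucose and 10.8 on poplar, and the kinetochore gene Nuf2 (Trave1_146528) at 9.96, 5.02 and 12.8. Genes of the lagging strand and DNA topology were lowest on glucose in 10 of 12 (83.3%), with none past 2-fold in any pair. Among 10 genes of primase, GINS and related factors, the GINS subunits Psf3 (Trave1_70337) at 13.4, 5.83 and 11.8 RPKM and Sld5 (Trave1_155821) at 11.8, 4.71 and 9.00 were past 2-fold lower on glucose than on PDA, from 9 reads each on glucose. They made up 20% of the 10 genes, beside 6.52% of all gene models lower in that pair.

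Chromatin genes included an enzyme that acts on H4. Histone acetyltransferase 1 (Trave1_119462), which in yeast acetylates newly made H4, stood at 306 RPKM on PDA, 114 on glucose and 226 on poplar. Glucose was its low library, with a log2 ratio to PDA of -1.41, and PDA its high one, the order that the 4 H4 genes also had. A link to H4 was not tested. Of the cytosolic ribosomal protein genes, 63.6% were also lowest on glucose and 88.6% highest on PDA, beside 37.3% and 30.3% of all gene models. Of the 39 chromatin genes, 2 (5.13%) were past 2-fold higher and 4 (10.3%) lower on glucose than on PDA, beside 12.7% and 6.52% of all gene models. By the interval, 70 of these 88 ribosomal genes (79.5%) were lower on glucose than on PDA, beside 19.5% of all gene models. On poplar 68 of 88 (77.3%) were lower than on PDA, beside 14.7%. Only 2 and 0 were past 2-fold, and the median log2 ratios were -0.34 and -0.27. These shares are not matched for level. The ribosomal genes had a median of 1179.5, 861.5 and 929 reads on PDA, glucose and poplar, beside 50, 49 and 53 for all gene models. With more reads, a smaller difference gives an interval that excludes 1.

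The cell cycle regulators held 1 gene with a larger difference than any member. The gene named G1/S cyclin PLC2 (Trave1_145905), a hypothetical protein, stood at 39.1 RPKM on PDA, 193 on glucose and 20.6 on poplar. Glucose was thus its high library, with a log2 ratio of poplar to glucose of -3.16. Of 55 measured regulators 1 was past 2-fold higher and 3 lower in that pair, where 8.1% and 8.31% of all gene models were. Of 56 regulators 31 (55.4%) were lowest on glucose, beside 37.3% of all gene models. The deoxynucleotide supply list had none past 2-fold in poplar against either medium, and its 1 call on glucose over PDA, Trave1_118574, is named dihydrofolate reductase but described as cytochrome b5.

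**Figure D5:**
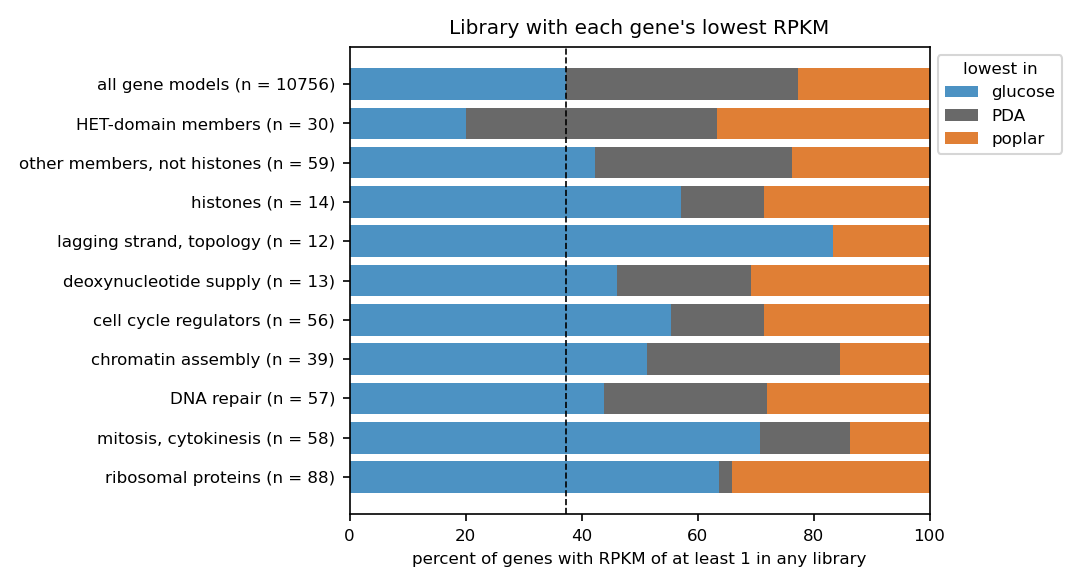
Share of genes (percent of those with an RPKM of at least 1 in any library) whose lowest RPKM was on glucose (blue), PDA (grey) or poplar (orange), for the members and for lists of related genes, with the number of genes beside each name. The dashed line marks the 37.3% of all gene models lowest on glucose; HET-domain members lie left of it at 20.0%, and the mitosis list (70.7%) and the lagging-strand list (83.3%) lie right of it.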

How the data were processed

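Poly(A)-enriched RNA of 3 cultures was sequenced on an Illumina HiSeq instrument, per the labels' protocols. The authors deposited, per the file headers, read counts assigned uniquely to each gene model, RPKM values, and the coverage of each model as a percent of its length, in a table for each library. Cufflinks 2.0.1 is named in the submitters' processing notes without its role; the sources used here do not give the aligner, genome build or strand setting, so overlapping and antisense genes cannot be told apart, and levels of paralogs are uncertain. The deposited RPKM values were used as given, after a check against the counts, the lengths and the summed counts, and a gene missing from a table was taken as 0 reads. Lengths were read as coding lengths, since 99.3% are multiples of 3. A KEGG name, description and Gene Ontology terms come from the same tables, and no sequence was used.

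Ratios were computed as log2(RPKM + 1), with a call at 2-fold among genes that reached an RPKM of 1 in one of the libraries compared. Plain ratios were given with exact conditional (Clopper-Pearson) 95% intervals of the counts. For a count of 0, a fold was also given against a fixed floor of 3 reads, which is not a bound of those intervals. PCR reads are not independent molecules, and the intervals cover counting error only. The counts have no replicates, so no count model was fitted. Members, lists and the rule for named genes (all histones, reductase, PCNA, MCM and catalytic polymerase genes, the extremes of each role and comparison, and up to 2 called genes of at least 10 RPKM per neighbouring list and comparison) were chosen with earlier results of these data known. Other members are named to account for their role, after their values were seen. Python 3.11.15, numpy 2.4.6, pandas 2.3.3, scipy 1.17.1 and matplotlib 3.10.9 were used, and the computation was tested on simulated data.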

Additional observations from a re-analysis of the deposited data

How the results depend on the processing

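No paired analysis was possible because each medium has 1 library and the labels give no replicate numbers, and for the same reason no replicate could be left out. The counts of members past 2-fold depend on the cut. Shares of all gene models are given above for the main cut and the interval, and not for the other cuts. The counts under those cuts therefore show how the cut moves them, and not whether members differ from all gene models. In poplar against glucose, the 5 higher and 6 lower members became 1 and 0 with a pseudocount of 5, 2 and 1 with a minimum RPKM of 10, and 14 and 10 at 1.5-fold; 13 were higher by the interval alone, and 2 and 0 were left among members whose description names the function. In poplar against PDA, the 7 and 5 became 2 and 2 with a pseudocount of 5, 2 and 2 with a minimum RPKM of 10, 17 and 12 at 1.5-fold, 15 and 14 by the interval and 2 and 1 by description, and 9 were lower with a pseudocount of 0.1. In glucose against PDA, the 4 and 6 became 1 and 2 with a pseudocount of 5, 1 and 3 with a minimum RPKM of 10, 14 and 15 at 1.5-fold and 9 and 16 by the interval; 1 was higher by description, and 10 were higher with a pseudocount of 0.1. Leaving out HET-domain genes, chosen after seeing the data, gave 3 and 1, 4 and 1, and 2 higher in the same order. These shifts follow from how each alternative is built, with other genes or another scale. No single gene reversed. Scaling by median of ratios or upper quartile moved the median of all genes by less than 0.1 on the log2 scale. It turned the sign of the members' median in poplar against PDA (0.00, then -0.11 and -0.10) and of the histones' median in poplar against glucose (0.09, then -0.0018 by median of ratios). The pooled poplar to glucose ratio of the MCM genes no longer excluded 1 by median of ratios, at 1.09 (0.949 to 1.26). Intervals of single genes that lie close to 1 depend on the scaling too. That of Trave1_58917 for poplar to glucose includes 1 by median of ratios. That of Trave1_122984 for glucose to PDA includes 1 by upper quartile, and that of Trave1_45862 for poplar to PDA by either scaling. Depth limits the low genes, as 77, 76 and 83 of 113 members had at least 10 reads on PDA, glucose and poplar.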

Other observations

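The KEGG names of these tables conflicted with the descriptions in other groups too. All 61 HET-domain genes outside the members are named lysine 2,3-aminomutase, and they too were low, with a median of 0.962 RPKM on PDA, 1.51 on glucose and 1.57 on poplar. Between poplar and glucose 6 of their 43 measured genes (13.95%) were past 2-fold higher and 7 (16.3%) lower. Of all gene models 8.1% were higher and 8.31% lower. By the interval 2 (4.65%) were higher and 5 (11.6%) lower, beside 20.2% and 15.2% of all gene models. In poplar against PDA 5 of 40 (12.5%) were past 2-fold higher and 6 (15%) lower, beside 10.8% and 5.11%. In glucose against PDA 4 of 39 (10.3%) were past 2-fold higher and 1 (2.56%) lower, beside 12.7% and 6.52%. In the list of DNA repair genes, all 24 gene models named RAD50, a DNA repair protein, are described as transporters or permeases, with 9 MFS general substrate transporters and 6 iron permeases among them. One of these, Trave1_132492, stood at 16.7 RPKM on PDA, 3.43 on glucose and 30.9 on poplar, and Trave1_170164, described as an iron permease, stood at 19.7, 38.2 and 6.63. These were the DNA repair list's largest differences between poplar and glucose among genes of at least 10 RPKM.

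The gene named mediator of replication checkpoint protein 1 (Trave1_69887), a hypothetical protein, stood at 2.53 RPKM on PDA, 10.8 on glucose and 1.84 on poplar, from 7, 28 and 5 reads. The gene named M-phase inducer phosphatase (Trave1_58158), the enzyme that in yeast releases the mitotic kinase, stood at 6.80, 9.09 and 16.2 RPKM. The deacetylase genes named SIR2 (Trave1_46688) and HOS3 (Trave1_166925) stood at 30.5, 12.5 and 22.2 RPKM and at 8.51, 5.90 and 17.7. SIR2 was chosen for a 2-fold call of glucose below PDA, and HOS3 for one of poplar above glucose. Their low glucose levels thus follow in part from the choice. The glucose to PDA ratio of HOS3 was 0.693, with an interval that included 1 (0.415 to 1.14).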
